A study of Homo sapiens with 6 samples.

Results

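Fibrinogen is the soluble plasma protein that thrombin turns into the fibrin of a blood clot. It is built from α, β and γ chains, which the genes FGA, FGB and FGG encode, and FGL1 (fibrinogen-like 1, also called hepassocin) is a secreted relative. These 4 genes, chosen by name out of 58735 in each deposited table, were followed in A549 cells, an established human lung adenocarcinoma line. The choice was made with their values in these libraries already known, so their levels and fold changes below are a description and carry no test. There were 6 RNA-seq libraries, 2 in each of 3 groups, from cells grown in RPMI medium with 10% serum and carrying a lentivirus stably. The T133A group received a pLVX construct of HOXB9, a homeodomain transcription factor, with the T133A change, a threonine to alanine exchange. The KO group is labelled as carrying a HOXB9 KO construct of the same vector. The WT group received unchanged HOXB9. All groups were therefore infected cells. An empty-vector group, whether the A549 cells kept their own HOXB9 in the T133A and WT groups, and whether a group is 1 clone were not given in the sources used here. The study's design sets T133A and KO against WT, and T133A was also set against KO here.

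In hepatocytes, the main source of fibrinogen, the chains are joined by disulfide bonds in the endoplasmic reticulum and secreted as a dimer of trimers. Interleukin-6 raises their transcription in the acute-phase response through STAT3, together with C/EBP and liver-enriched factors. Fibrinogen synthesis has also been described in lung epithelial cells, A549 included, under interleukin-6 and a glucocorticoid. FGL1 is made mainly by the liver, carries the fibrinogen domain and is a ligand of the T cell receptor LAG3.

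The chain genes lie next to one another on chromosome 4, in GRCh38 coordinates taken from the files. FGB (ENSG00000171564) spans 154562956 to 154571086 on the plus strand. FGA (ENSG00000171560, 154583126 to 154590766) and FGG (ENSG00000171557, 154604134 to 154612967) lie on the minus strand. The gaps are 12 kb between FGB and FGA and 13.4 kb between FGA and FGG, so that the cluster covers 50.0 kb. FGL1 (ENSG00000104760) is on chromosome 8, from 17864380 to 17910365 on the minus strand. No annotated gene overlaps a chain gene. The opposite-strand genes AC087273.1 and AC087273.2 overlap FGL1 but had at most 1 and 5 counts in any library, against at least 74 for FGL1.

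The bases just before the starts of the chain genes are shown because the chain transcripts were low together in KO cells, as described below. RefSeq promoter sequences of GRCh38.p14 were found for the 3 chains; none is shown for FGL1. The windows are chr4:154562730-154562949 for FGB and chr4:154590773-154590992 for FGA, which end 31 bases before the RefSeq start. For FGG only chr4:154612800-154612829 is shown, since exons of other annotated FGG transcripts lie around it. Each runs 5′ to 3′ on the gene's own strand, and capitals mark matches, on either strand, to the STAT3-type core CTGGGA, to the STAT palindrome TTCCNGGAA, to the sequence GTTAAT and to the C/EBP-type TTGCNNAA.

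FGB: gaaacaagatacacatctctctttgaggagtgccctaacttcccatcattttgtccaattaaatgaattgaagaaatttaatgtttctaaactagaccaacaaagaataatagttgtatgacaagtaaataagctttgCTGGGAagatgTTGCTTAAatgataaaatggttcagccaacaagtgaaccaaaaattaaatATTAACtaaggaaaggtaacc
FGA: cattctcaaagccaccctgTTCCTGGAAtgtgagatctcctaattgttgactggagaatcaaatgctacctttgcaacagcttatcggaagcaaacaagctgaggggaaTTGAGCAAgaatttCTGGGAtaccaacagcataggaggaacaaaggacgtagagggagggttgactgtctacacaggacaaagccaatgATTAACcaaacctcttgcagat
FGG: tgtgtgcaaaatCTGGGAacctgacagtat

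CTGGGA, the core of the interleukin-6 response elements described in acute-phase genes, was found before all 3 chains, and 25.8% of the 35116 promoter windows of the same length hold it. The search covered the same stretch before every gene, including the part of FGG not shown. In FGB the match begins 112 bases before the start, in FGA 127 and in FGG 161, and FGG holds another, on the opposite strand, beginning 42 bases before the start. GTTAAT, which reads ATTAAC on the strand shown, began 51 bases before the start in FGB and 52 in FGA, and 5.75% of all windows hold it. TTGCNNAA, a C/EBP-type sequence, was also in the FGB and FGA windows, against 8.22% of all windows. TTCCNGGAA, the palindrome that STAT factors can bind, was in FGA alone among these windows and in 0.871% of all. TAAT, the short core that many homeodomain proteins can bind, overlaps GTTAAT and is not capitalised; it occurred 5 times before FGB, 2 times before FGA and 1 time before FGG, and 45.1% of all windows hold it. GTTAAC was in none of the 3 windows. These matches describe letters only and say nothing of binding in these cells.

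HOXB9 itself, the gene named by the labels, had 4777 and 3577 counts in T133A cells, 239 and 286 in KO cells and 3807 and 3889 in WT cells, so its transcript was low but present in the libraries labelled KO. Total counts were between 16299059 and 18745432 per library, and 16340 genes passed the filter on low counts, all 4 genes among them. Levels are given in counts-per-million (CPM) after edgeR's TMM scaling. Mitochondrial transcripts took 8.91% and 8.51% of counts in T133A cells, 5.60% and 4.45% in KO cells and 7.87% and 7.84% in WT cells, which moves with the KO group, and their part in the results below was not tested. The epithelial markers KRT8 and KRT18 were abundant in every library (the 14 listed lung and A549 markers summed to between 7990 and 10200 CPM), while the surfactant genes SFTPA1, SFTPA2, SFTPB and SFTPC and the lung factor NKX2-1 had at most 4 counts. Of the hepatocyte markers, ALB had at most 6 counts and APOA2 had none. CPS1, of the same list, had 4086 and 4077 counts in T133A cells, 219 and 307 in KO cells and 7012 and 6805 in WT cells. Nothing in the labels ties the replicates to independent cultures. Spread and p-values therefore cover only differences among these libraries, which may be technical.

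FGB was the most abundant of the chains in T133A and WT cells and the least abundant in KO cells. It had 2888 and 2665 counts in T133A cells, 6 and 16 in KO cells and 2453 and 2499 in WT cells. Scaled, these were 166 and 157 CPM in T133A cells, 0.364 and 0.861 CPM in KO cells and 143 and 139 CPM in WT cells. Both KO libraries lay far below the other 4, and the T133A libraries lay just above the WT libraries.

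FGA, the chain that carries fibrinopeptide A and most of the sites where fibrin is cross-linked, had 1576 and 1331 counts in T133A cells, 41 and 89 in KO cells and 1864 and 1795 in WT cells. That gave 90.6 and 78.3 CPM in T133A cells, 2.49 and 4.79 CPM in KO cells and 109 and 100.1 CPM in WT cells. The KO libraries were again lowest, and here both T133A libraries lay below both WT libraries.

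FGG, whose chain holds a binding site for platelet integrin, had 1207 and 1132 counts in T133A cells, 20 and 37 in KO cells and 1125 and 1089 in WT cells. Its levels were 69.4 and 66.6 CPM in T133A cells, 1.21 and 1.99 CPM in KO cells and 65.8 and 60.7 CPM in WT cells. T133A and WT libraries were within a few CPM of each other without overlapping. For each chain KO replicate 2 was above KO replicate 1, by 1.92 times for FGA, 2.36 times for FGB and 1.64 times for FGG.

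FGL1, like FGA, was ordered with T133A cells between KO and WT cells, but its T133A level lay further below WT. It had 368 and 314 counts in T133A cells, 74 and 96 in KO cells and 761 and 823 in WT cells. The levels were 21.2 and 18.5 CPM in T133A cells, 4.49 and 5.17 CPM in KO cells and 44.5 and 45.9 CPM in WT cells. No group overlapped another, and the KO libraries differed by 1.15 times, less than they did for any chain. In bulk libraries, fewer cells holding a transcript and less of it per cell cannot be told apart.

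**Figure D1:**
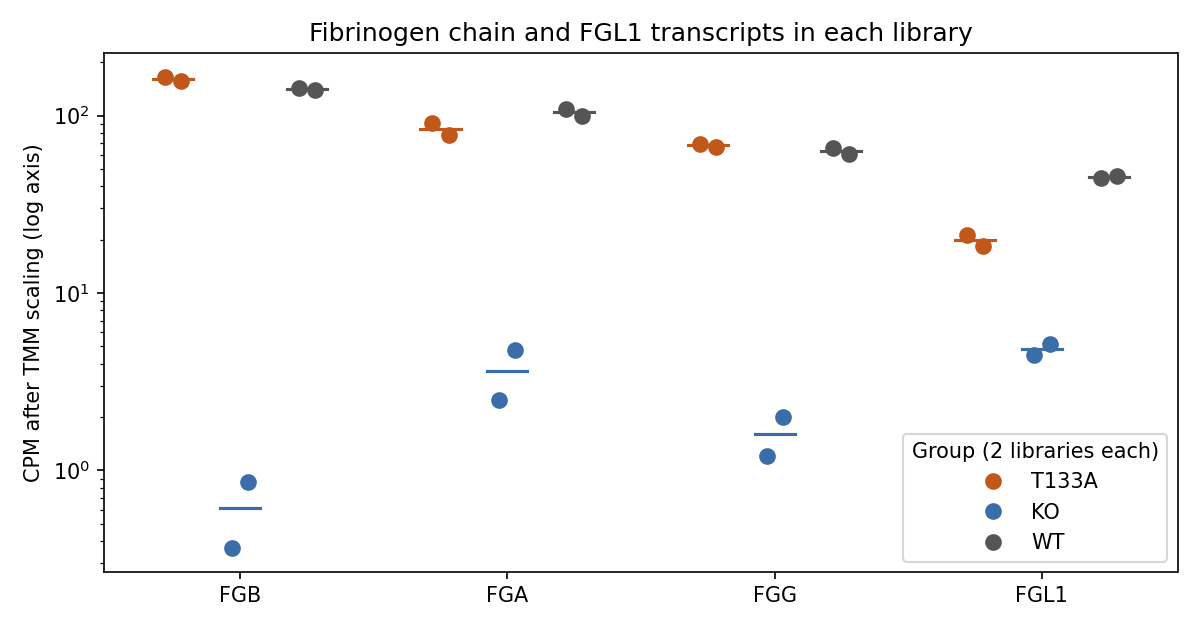
Level of each gene in each library, in counts-per-million after TMM scaling on a log axis; points are libraries and short lines the mean of the 2 libraries of a group. FGB sits at 0.364 and 0.861 CPM in KO cells, against 143 and 139 CPM in WT cells, while FGL1 in T133A cells, at 21.2 and 18.5 CPM, lies between KO and WT cells.

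Relative to WT cells, KO cells held far less of every member. The fitted log2 fold change, KO over WT, was -7.80 (SE 0.196) for FGB, -5.28 (SE 0.181) for FGG, -4.82 (SE 0.182) for FGA and -3.22 (SE 0.158) for FGL1, or 223-fold, 38.8-fold, 28.3-fold and 9.32-fold lower. Mean levels were 0.613 ± 0.351 CPM in KO cells and 141 ± 2.85 CPM in WT cells for FGB, and 4.83 ± 0.477 CPM in KO cells and 45.2 ± 0.999 CPM in WT cells for FGL1 (SD, n = 2 each). All 4 were lower without overlap, which held for 37.5% of the tested genes, and 46.6% of them passed edgeR's test in either direction. A log2 fold change of -4 or lower was reached by 1.1% of the tested genes, the 3 chains included. Counted from the most negative of 13538 protein-coding genes, FGB stood at rank 16, FGG at 84, FGA at 99 and FGL1 at 248. These ranks describe genes chosen for their change.

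How large the chain values were depended on which KO library was used. Without KO replicate 1 and without KO replicate 2, the log2 fold change against WT was -7.33 and -8.59 for FGB, -4.96 and -5.71 for FGG, and -4.42 and -5.40 for FGA. FGL1 stayed between -3.34 and -3.10 in 15 other settings. The counts in KO cells are small, and exact Poisson 95% intervals, which cover counting error only, were 2.2 to 13.1 around the 6 counts of FGB and 9.15 to 26.0 around the 16.

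Between T133A and WT cells the chains differed little and FGL1 differed most. The log2 fold change, T133A over WT, was -1.19 (SE 0.135) for FGL1, a level 2.28-fold lower. It was -0.31 (SE 0.135) for FGA, 0.19 (SE 0.110) for FGB and 0.10 (SE 0.122) for FGG. FGA averaged 84.4 ± 8.73 CPM in T133A cells and 104 ± 6.26 CPM in WT cells, and FGG averaged 68.0 ± 2.0 CPM in T133A cells and 63.2 ± 3.56 CPM in WT cells (SD, n = 2 each). Groups that do not overlap were common in this comparison, at 53.6% of the tested genes, and 9.55% of them passed the test. FGL1 was 165th from the most negative of the protein-coding genes. Over 15 other settings FGL1 stayed between -1.27 and -1.09 and FGA between -0.40 and -0.20.

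T133A cells set against KO cells gave log2 fold changes of 7.99 (SE 0.195) for FGB, 5.38 (SE 0.180) for FGG, 4.51 (SE 0.182) for FGA and 2.03 (SE 0.162) for FGL1. All 4 were higher in T133A cells without overlap, as were 32.9% of the tested genes, and 39.9% passed the test in either direction. A log2 fold change of 4 or more was reached by 1.16% of the genes, the 3 chains included. Without KO replicate 1 and without KO replicate 2 the values were 7.51 and 8.77 for FGB, 5.06 and 5.81 for FGG, and 4.11 and 5.09 for FGA. The 3 comparisons share libraries pairwise, so none of them is independent of the others.

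**Figure D2:**
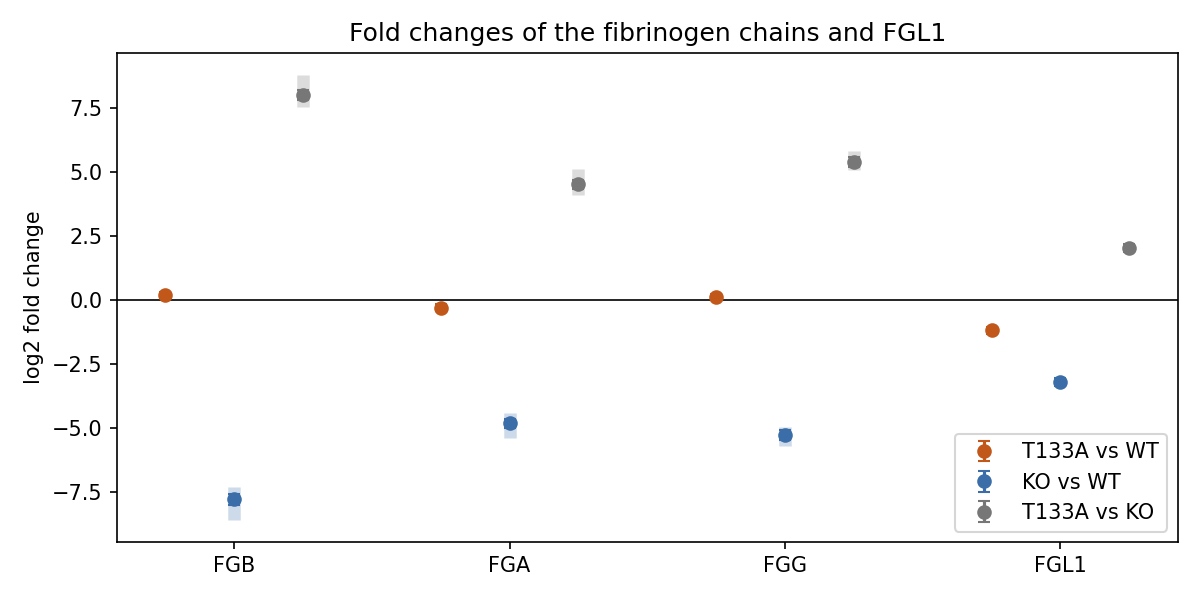
Fitted log2 fold change of each gene in the 3 comparisons, first-named group over the second; error bars are 1 SE, mostly hidden by the points, and the pale bands span the values over 15 other settings. The chains lie near 0 in T133A against WT (-0.31 to 0.19) and between -7.80 and -4.82 in KO against WT, while FGL1 lies at -1.19 and -3.22.

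Because the genes differ in length, levels between genes were compared as CPM per kilobase of the deposited gene length. In T133A cells FGB stood at 59.6 ± 2.44, FGA at 21.3 ± 2.21, FGG at 18.9 ± 0.557 and FGL1 at 6.0 ± 0.577 CPM per kilobase (SD, n = 2 throughout). In KO cells the order was FGL1 at 1.46 ± 0.144, FGA at 0.920 ± 0.411, FGG at 0.445 ± 0.153 and FGB at 0.226 ± 0.130 CPM per kilobase. In WT cells it was FGB at 52.2 ± 1.05, FGA at 26.4 ± 1.58, FGG at 17.6 ± 0.988 and FGL1 at 13.7 ± 0.303 CPM per kilobase. FGB thus led in T133A and WT cells and came last in KO cells, where FGL1 led. In T133A cells FGA and FGG were neighbours separated by little more than the SD of FGA, and in KO cells each neighbouring pair was separated by less than 2 of the larger SD. By this level FGB ranked 575th of 13538 protein-coding genes in T133A cells, 12417th in KO cells and 627th in WT cells. FGL1 ranked 6063rd in T133A cells, 9883rd in KO cells and 3006th in WT cells.

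The make-up of the chain transcripts differed between KO cells and the others. FGB made up 59.7% ± 0.669 of the summed CPM per kilobase in T133A cells, 13.7% ± 2.16 in KO cells and 54.3% ± 0.951 in WT cells (SD, n = 2). FGA made up 21.4% ± 1.10 in T133A cells, 57.7% ± 0.714 in KO cells and 27.5% ± 0.612 in WT cells. FGG made up 18.9% ± 0.429 in T133A cells, 28.6% ± 2.87 in KO cells and 18.3% ± 0.340 in WT cells. FGA was therefore the leading chain in both KO libraries, and FGB in the other 4. Unlike the totals, these shares lay close together in the KO replicates, at 12.2% and 15.3% for FGB.

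As shares of the raw chain counts, FGB was 50.9% and 52.0% in T133A cells. In KO cells it was 8.96% (6 of 67 counts, exact Clopper-Pearson 95% interval 3.36% to 18.5%) and 11.3% (16 of 142, 6.58% to 17.7%). In WT cells it was 45.1% and 46.4%, with intervals of 43.7% to 46.4% and 45.1% to 47.8%. These intervals cover counting error only and are given as a description. With the length of 1 principal transcript for each chain in place of the gene length, an alternative chosen after seeing the data, FGB was at 51.0% in T133A cells, 10.3% in KO cells and 45.8% in WT cells.

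**Figure D3:**
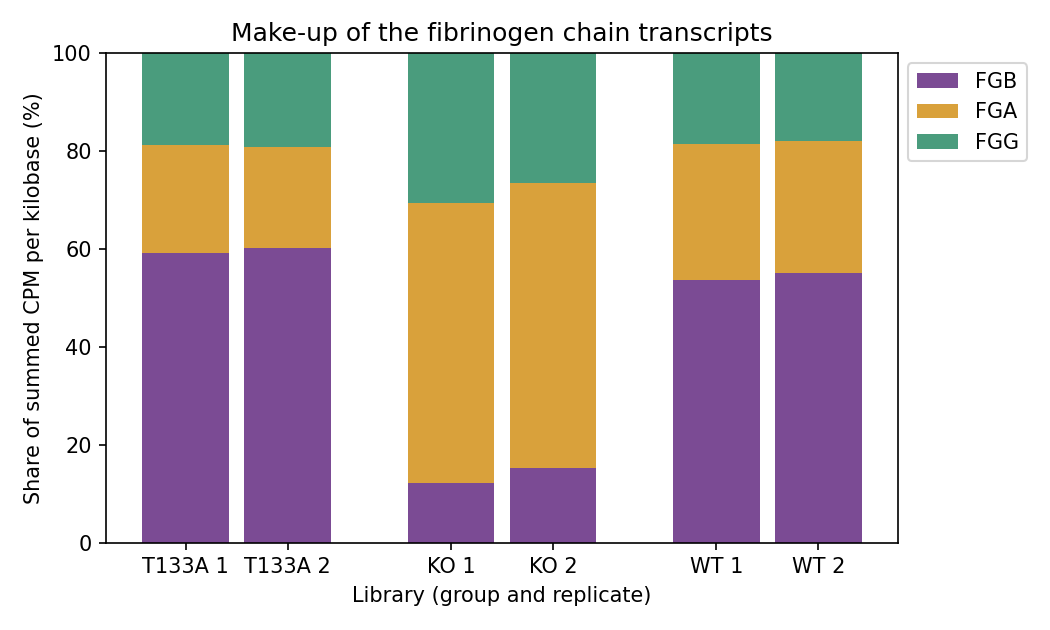
Share of each chain in the summed chain level (CPM per kilobase, in percent) in each of the 6 libraries. FGB takes 59.2% and 60.2% in T133A cells, 12.2% and 15.3% in KO cells and 53.6% and 55.0% in WT cells.

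In KO against WT none of the tested genes beside the chain cluster reached the fold changes of the chains. Within 500 kb of the cluster the annotation lists 16 other genes, of which 3 were tested. PLRG1, a spliceosome component 12.5 kb away, had 52.5 ± 3.38 CPM in T133A cells, 59.2 ± 10.1 in KO cells and 55.9 ± 0.644 in WT cells (SD, n = 2), with a KO over WT log2 fold change of 0.08 (SE 0.122, edgeR adjusted p = 0.608). LRAT, which esterifies retinol and lies 14.0 kb beyond FGG, fell in KO cells (log2 fold change -2.04, SE 0.547, edgeR adjusted p = 0.00409) at low levels of 0.317 CPM in KO cells and 1.31 CPM in WT cells. None of the 3 passed the test between T133A and WT cells.

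Of 28 other genes within 500 kb of FGL1, 9 were tested. Of these 4 fell in T133A cells against WT, where 3.97% of all tested genes fell and 9.55% passed in either direction. In KO cells 7 fell, against 23.0% of all tested genes, and none of the 9 rose in T133A or KO cells. Of the 7, PDGFRL (-0.439, edgeR adjusted p = 0.0186) did not pass with DESeq2 (-0.435, adjusted p = 0.064). MTUS1, a microtubule-associated protein, was at 380 ± 36 CPM in T133A cells, 162 ± 28.9 in KO cells and 606 ± 15.2 in WT cells (SD, n = 2). It fell in T133A cells (-0.67, edgeR adjusted p = 0.000333) and in KO cells (-1.90, adjusted p = 1.21e-11). PCM1, a centriolar satellite protein 12.5 kb away, fell by less in KO cells (-0.61, adjusted p = 0.00012). Its lower level in T133A cells (-0.50, adjusted p = 0.0048) did not pass without T133A replicate 1 (adjusted p = 0.0586) or without WT replicate 1 (0.0817). AC027117.2, an antisense transcript 3.31 kb from FGL1 singled out after its values were seen, had 1.80 CPM in T133A cells, 0.562 in KO cells and 5.46 in WT cells, with log2 fold changes of -1.60 in T133A cells (adjusted p = 0.000822) and -3.25 in KO cells (adjusted p = 1.18e-07). Whether the counting used strand was not given in the sources used here.

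**Figure D4:**
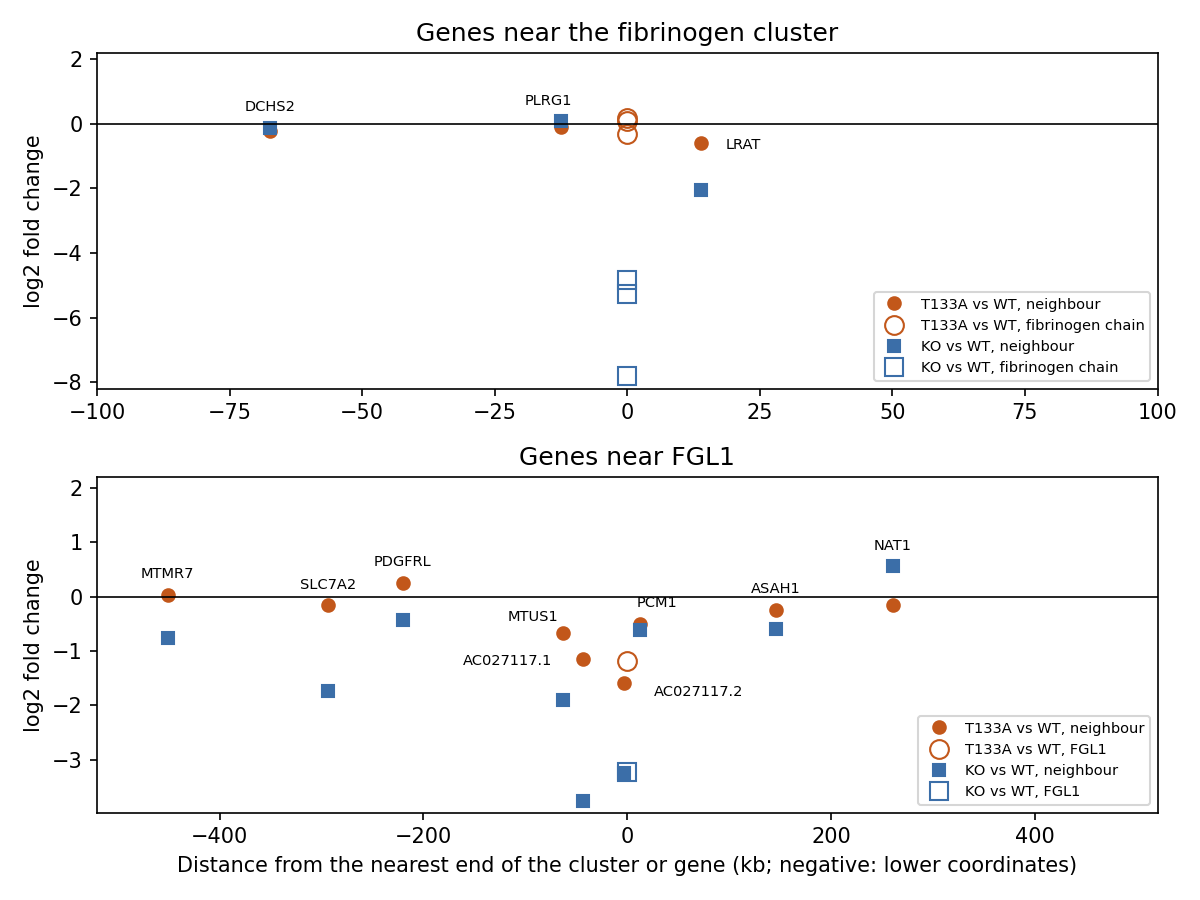
Log2 fold change of tested genes near the chain cluster (upper panel) and near FGL1 (lower panel) by distance in kb from the nearest end; filled symbols are neighbours, open symbols the chains or FGL1, circles T133A against WT and squares KO against WT. PLRG1 and LRAT, on either side of the cluster, lie at 0.08 and -2.04 in KO against WT, away from the chains at -7.80 to -4.82.

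The genes around these 4 in the biology of fibrinogen were followed in 8 lists. Among the regulators, all 26 hepatic and acute-phase transcription factors were tested: in KO cells 6 rose and 10 fell against WT (median log2 fold change -0.15, against 0.00 over all tested genes; 23.6% of all tested genes rose and 23.0% fell). The pioneer factor FOXA1 fell in KO cells to 18.3 ± 0.462 CPM, against 83.7 ± 7.83 CPM in WT cells (log2 fold change -2.19, SE 0.125, edgeR adjusted p = 2.21e-12). HNF4A, a master regulator of hepatocyte genes, fell to 5.48 ± 1.39 CPM in KO cells, against 28.4 ± 1.39 CPM in WT cells (-2.37, SE 0.183, adjusted p = 4.5e-10). PPARGC1A, a coactivator of liver metabolic genes, fell as well (-2.73, SE 0.224, adjusted p = 1.13e-09), while the nuclear receptor NR5A2 rose (1.90, SE 0.119, adjusted p = 1.28e-11). STAT3, which relays the interleukin-6 signal, was at 374 CPM in T133A cells, 311 in KO cells and 322 in WT cells, and its KO over WT value of -0.05 (SE 0.105, adjusted p = 0.716) did not pass.

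In T133A cells 2 of the 26 factors rose and 7 fell against WT, where 5.58% and 3.97% of all tested genes did; without WT replicate 1 and without WT replicate 2 the fallen were 2 and 3, and without T133A replicate 1 or without WT replicate 2 the risen were 1. FOXA1 was at 58.0 ± 4.63 CPM in T133A cells and 83.7 ± 7.83 CPM in WT cells (-0.53, SE 0.115, edgeR adjusted p = 0.0037), which did not pass without WT replicate 1 (adjusted p = 0.167). HNF4A was at 24.1 ± 5.0 CPM in T133A cells and 28.4 ± 1.39 CPM in WT cells (-0.24, SE 0.159, adjusted p = 0.406).

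Of 26 genes of interleukin-6 family signalling 23 were tested. The list also holds genes of the interleukin-1 system, IL1A, IL1B, IL1R1 and IL1RN. In T133A cells 8 rose and none fell against WT (median 0.09), where 5.58% and 3.97% of all tested genes did, and without T133A replicate 2 there were 2 that fell. IL6, the cytokine that drives fibrinogen in the liver, rose to 20.9 ± 0.984 CPM in T133A cells, against 1.43 ± 0.371 CPM in WT cells (3.86, SE 0.233, edgeR adjusted p = 3.64e-11). OSMR, the oncostatin M receptor, rose to 508 ± 16.0 CPM, against 279 CPM in WT cells (0.86, adjusted p = 4.8e-06). The 8 that rose include IL1B and IL1A, at 2.03 and 1.37 CPM in T133A cells, against 0.627 and 0.173 CPM in WT cells. IL1A, at 0.253 CPM in KO cells, passed the filter on low counts through T133A cells alone. It could be counted as higher in T133A cells but not as lower, so the filter in part set the count. In KO cells 5 rose and 4 fell (median 0.12); 7 fell when either T133A library was left out. These KO counts are near the shares of all tested genes, 23.6% of which rose and 23.0% fell. IL6 was at 1.80 ± 0.492 CPM in KO cells (0.35, adjusted p = 0.364), and OSMR fell (-0.66, adjusted p = 2.89e-05). IL11, a cytokine of the same family, rose in both T133A cells (2.30, adjusted p = 6.96e-06) and KO cells (2.64, adjusted p = 9.25e-08).

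Among 40 other liver-type plasma proteins 15 were tested. In KO cells none rose and 9 fell against WT, with a median log2 fold change of -2.01, while 23.6% of all tested genes rose and 23.0% fell. Of the 9, AHSG, SERPINA1, SERPING1 and GC were at 0.0842, 0.256, 0.263 and 0.0269 CPM in KO cells. They passed the filter on low counts through T133A and WT cells alone. Such genes could be counted as lower in KO cells but not as higher, so the filter in part set the count and median. RBP4, the retinol carrier, fell (-3.18, SE 0.224, edgeR adjusted p = 9.02e-11), as did vitronectin, VTN (-2.71, SE 0.179, adjusted p = 3.03e-11) and APOH, which binds phospholipid (-1.86, SE 0.177, adjusted p = 1.4e-08). Ceruloplasmin, CP, the most abundant, was at 82.3 ± 0.503 CPM in T133A cells, 14.6 ± 2.59 CPM in KO cells and 68.8 CPM in WT cells, with a KO over WT value of -2.23 (adjusted p = 3.35e-12). In T133A cells 1 rose and 5 fell (median -0.55), against 5.58% and 3.97% of all tested genes. Of the 5, AGT was at 0.261 CPM in T133A cells, 1.23 in KO cells and 1.23 in WT cells. It passed the filter on low counts through KO and WT cells alone. LBP, the 1 that rose, passed it through T133A cells alone, so the filter in part set both counts. The fallen were 2 without T133A replicate 2 and 3 without WT replicate 1, and the risen were 2 without T133A replicate 2 or either KO library. APOH fell in T133A cells (-1.04, SE 0.167, adjusted p = 0.000154) and CP did not pass (0.26, SE 0.117, adjusted p = 0.188).

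The chains are assembled in the endoplasmic reticulum, and 22 genes of disulfide-linked assembly and secretion were all tested. In KO cells 1 rose and 13 fell (median -0.40), against 23.6% and 23.0% of all tested genes; the 1 that rose was not counted without KO replicate 2 or either WT library, and 2 rose without KO replicate 1 or either T133A library. MAN1A1, which trims N-linked glycans, fell (-2.09, SE 0.179, edgeR adjusted p = 2.38e-09), as did the chaperone HSP90B1 (-0.86, SE 0.108, adjusted p = 9.94e-07) and the oxidase ERO1B (-1.11, SE 0.150, adjusted p = 2.81e-06). CANX, the lectin chaperone calnexin, did not pass (-0.15, adjusted p = 0.234). In T133A cells 2 rose and none fell (median 0.07), against 5.58% and 3.97% of all tested genes; 1 rose without WT replicate 1 and 0 without WT replicate 2, while 1 fell without T133A replicate 1 or either KO library and 2 without T133A replicate 2.

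Downstream of fibrinogen, 16 of 29 genes of coagulation and fibrin cross-linking were tested, and in KO cells 1 rose and 8 fell (median -0.38), against 23.6% and 23.0% of all tested genes; 2 rose without KO replicate 1 or either T133A library. Of the 8, KNG1 was at 0.233 CPM in T133A cells, 0.0 in KO cells and 0.716 in WT cells. It passed the filter on low counts through WT cells alone, and could be counted as lower in KO cells but not as higher. TFPI, the tissue factor pathway inhibitor, fell to 36.2 CPM in KO cells, against 162 CPM in WT cells (-2.17, SE 0.114, edgeR adjusted p = 5.41e-13). The anticoagulant cofactors PROS1 (-1.95, SE 0.131, adjusted p = 4.18e-11) and THBD (-1.58, SE 0.140, adjusted p = 4.36e-09) also fell. In T133A cells 3 rose and 2 fell (median 0.09), against 5.58% and 3.97% of all tested genes; 4 fell without either KO library and 1 without WT replicate 1. THBD rose in T133A cells (0.99, SE 0.128, adjusted p = 9.37e-06), as did TFPI2 (1.13, adjusted p = 2.43e-08) and TGM2, a transglutaminase (0.72, adjusted p = 9.03e-05). The 2 that fell in T133A cells were TFPI (-0.50, SE 0.107, adjusted p = 0.00288) and F5 (-1.30). PROS1 lay just outside the threshold in T133A cells (-0.38, SE 0.121, edgeR adjusted p = 0.0501). It passed with limma-voom (adjusted p = 0.0364) and in some other settings. F5 was at 3.17 CPM in T133A cells, 0.839 in KO cells and 7.82 in WT cells.

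For fibrinolysis, the breakdown of fibrin by plasmin, 9 of 14 genes were tested. In T133A cells 5 rose and none fell against WT (median 0.69), and in KO cells 4 rose and 3 fell (median 0.07; 1 fell without WT replicate 2). Of all tested genes, 5.58% rose and 3.97% fell in T133A cells, and 23.6% rose and 23.0% fell in KO cells. PLAU, the urokinase activator, rose in both T133A cells (1.23, edgeR adjusted p = 1.45e-08) and KO cells (1.89, adjusted p = 1.43e-12). Its receptor PLAUR rose in T133A cells (0.69, adjusted p = 0.000124) and fell in KO cells (-1.06, adjusted p = 7.44e-08).

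Of 14 genes for receptors of fibrinogen or FGL1 12 were tested; 3 rose and none fell in T133A cells (median 0.41), and 3 rose and 3 fell in KO cells (median 0.40; 1 fell without KO replicate 1 or without WT replicate 1). Of all tested genes, 5.58% rose and 3.97% fell in T133A cells and 23.6% rose and 23.0% fell in KO cells, and the KO counts of the receptors are near those shares. ICAM1, which binds fibrinogen, rose to 12.1 ± 1.45 CPM in T133A cells (4.62, SE 0.304, edgeR adjusted p = 1.62e-10), and ITGA5 rose in T133A cells (1.12, adjusted p = 1.22e-06) and KO cells (1.33, adjusted p = 1.02e-08). ITGB3, the β subunit of platelet fibrinogen receptors, rose in KO cells to 3.20 CPM, against 0.369 CPM in WT cells (3.09, SE 0.450, adjusted p = 7.38e-06). It had 9 and 11 counts in T133A cells, 46 and 67 in KO cells and 5 and 8 in WT cells. ITGB3 thus passed the filter on low counts through KO cells, and could be counted as higher in KO cells but not as lower. LAG3, the FGL1 receptor, named after its values were seen, was at 0.987 CPM in T133A cells, 0.515 in KO cells and 1.23 in WT cells. Of 22 other genes with a fibrinogen domain only 6 were tested: 2 rose and 1 fell in T133A cells (median 0.37; none fell without T133A replicate 1 or either WT library), and 2 rose and 2 fell in KO cells (median 0.09). The matrix protein tenascin C, TNC, rose to 32.0 ± 2.45 CPM in T133A cells and 9.45 ± 0.488 CPM in KO cells, against 5.96 ± 0.165 CPM in WT cells (T133A 2.42, adjusted p = 1.4e-10; KO 0.66, adjusted p = 0.00261). ANGPT1, a ligand of the TEK receptor, fell in KO cells (-2.49, SE 0.246, adjusted p = 2.34e-08).

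**Figure D5:**
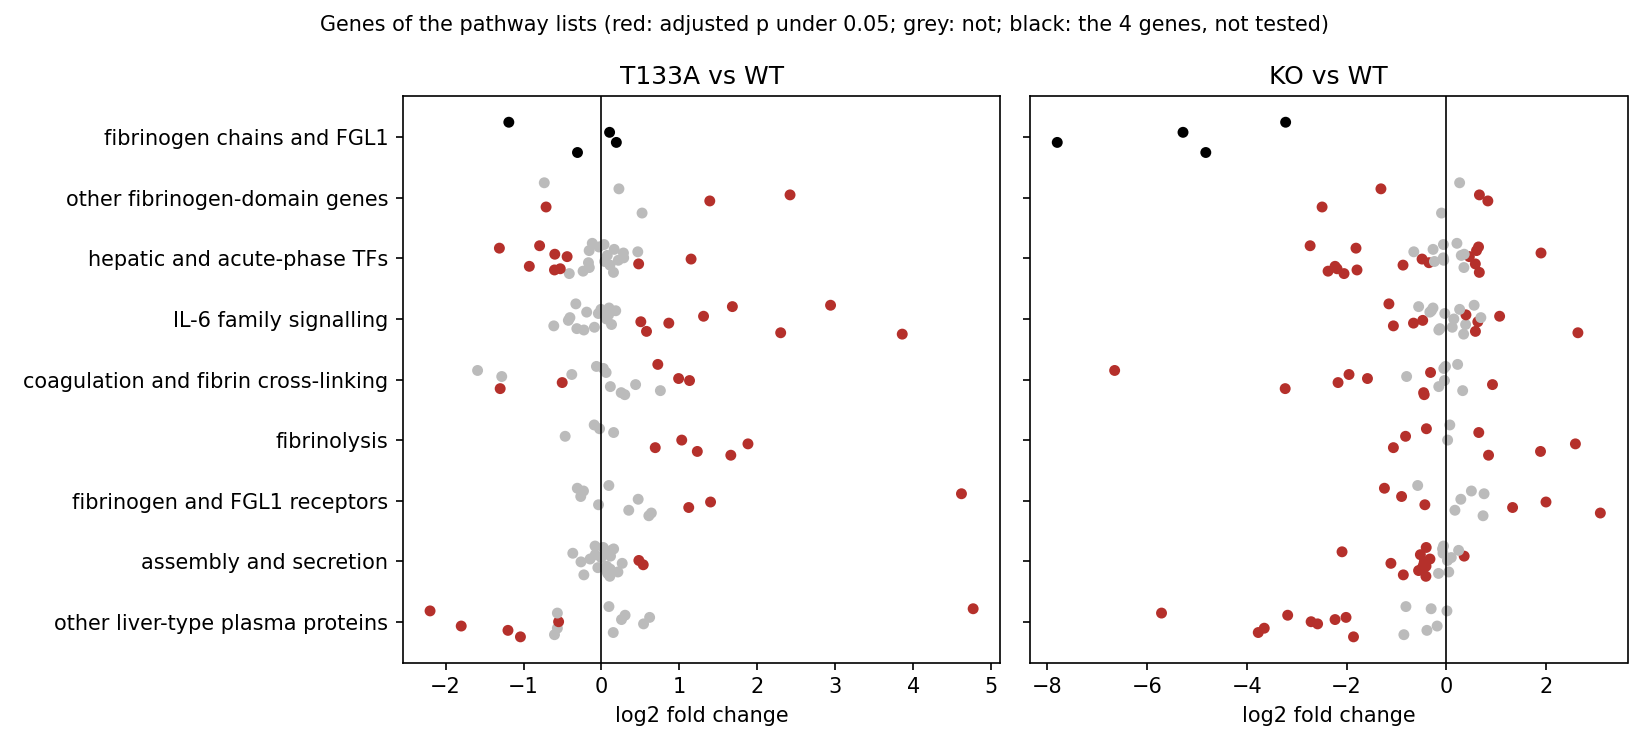
Log2 fold change of each tested gene of the 8 lists, with the chains and FGL1 in the top row; T133A against WT is on the left and KO against WT on the right, and red points had an edgeR adjusted p under 0.05. In KO cells 9 of 15 liver-type plasma proteins fell and none rose, some of them having passed the filter through T133A and WT cells alone. In T133A cells 8 of 23 genes of the interleukin-6 family list, which also holds interleukin-1 genes, rose and none fell. IL1A, among the 8, passed the filter through T133A cells alone.

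Of the marker lists of other cell types, the hepatocyte, fibroblast, megakaryocyte and endothelial sums were lower in both KO libraries than in the other 4. The 8 hepatocyte markers summed to 237 and 241 CPM in T133A cells, 14.0 and 17.1 CPM in KO cells and 411 and 381 CPM in WT cells, nearly all of it CPS1, the urea cycle enzyme (237 CPM in T133A cells, 14.9 in KO cells and 395 in WT cells), with ALB at or near 0. The 6 fibroblast markers summed to 42.7 and 42.8 CPM in T133A cells, 14.4 and 14.0 in KO cells and 42.6 and 42.6 in WT cells. LUM and COL3A1 made most of that difference, with LUM at 23.0 CPM in T133A cells, 0.229 in KO cells and 21.3 in WT cells, while COL1A1 (9.47 CPM in KO cells, 6.39 in WT cells) and THY1 (4.14 CPM in KO cells, 0.687 in WT cells) were higher in KO cells. The 6 megakaryocyte and platelet markers summed to 16.9 and 13.6 CPM in T133A cells, 4.31 and 5.06 in KO cells and 6.78 and 7.70 in WT cells. That last sum differed more between T133A and WT cells than between KO and WT cells. PPBP made most of the difference between T133A and WT cells, at 7.92 CPM in T133A cells and 1.14 in WT cells. The 5 endothelial markers summed to 2.18 and 2.35 CPM in T133A cells, 0.304 and 0.323 in KO cells and 1.75 and 0.836 in WT cells. The 6 haematopoietic markers summed to 13.2 and 11.5 CPM in T133A cells. Their sums were 5.58 and 11 CPM in KO cells and 11.3 and 8.20 CPM in WT cells. The KO and WT sums overlapped, and both T133A sums lay a little above them. CD14 made up most of these sums, at 12.1 CPM in T133A cells, 8.13 in KO cells and 9.57 in WT cells. EPCAM, an epithelial adhesion molecule, was at 12.8 CPM in T133A cells, 1.83 in KO cells and 15.7 in WT cells. The part of these markers in the chain and FGL1 values was not tested.

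The genes with the most similar profile were sought among 10790 protein-coding genes of at least 5 CPM on average, by the root mean square distance of centred log2 CPM over the 6 libraries. Nearest to the summed chains were RARRES1 (distance 0.173), NMUR2 (0.223), USH1C (0.309), MUC13 (0.318) and IFITM1 (0.327). RARRES1 had 322 CPM in T133A cells, 5.05 in KO cells and 338 in WT cells, close to the summed chains at 326 and 302 CPM in T133A cells, 4.07 and 7.64 in KO cells and 318 and 300.2 in WT cells. Among the 5 nearest to FGL1 were MGAM (0.0951), CADM2 (0.145), ANG (0.205) and TM4SF4 (0.212). MGAM, the digestive enzyme maltase-glucoamylase, had 5.49 CPM in T133A cells, 1.31 in KO cells and 12.6 in WT cells, stepping down from WT through T133A to KO as FGL1 did.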

How the data were processed

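Total RNA of 6 A549 libraries was sequenced. Per the submitters' processing notes, HISAT2 2.0.5 and featureCounts 1.5.0 were used with GRCh38; the annotation release and strand setting were not stated in these notes. The authors deposited, for each library, whole-number counts per gene and FPKM. The deposited FPKM were used only to check the chain shares; their implied library sizes were 0.967 to 1.03 times the total counts. Of 58735 genes, 27 names that had become dates were restored by gene ID. All 6 libraries entered a single edgeR 4.0.16 quasi-likelihood fit (R 4.3.3, TMM scaling, filterByExpr, robust), with p-values adjusted by Benjamini-Hochberg over 16340 genes at a threshold of 0.05; the biological coefficient of variation was 8.96%. The same fit was also run on counts simulated from its own mean levels and spread, with few changed genes. That run cannot show how well the fit suits these libraries. DESeq2 1.42.0, limma-voom (limma 3.58.1), other scalings, filters, a replicate block and leaving out each library were alternatives. Replicate numbers did not pair the libraries. CPM are TMM-scaled; a count of 0 allows up to 3 counts (0.160 to 0.184 CPM). Sequences come from RefSeq GRCh38.p14, gene overlaps from the coordinates deposited with the counts, and principal transcript lengths from GENCODE.

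The members and lists were chosen with earlier results of these data known. Named genes were the members, HOXB9, the nearest tested protein-coding gene on each side of a locus, up to 4 called genes with the smallest adjusted p and the most abundant gene of each list, and the 5 nearest profiles; not all are reported here.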

Additional observations from a re-analysis of the deposited data

How the results depend on the processing

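None of the 12 fold changes of the chains and FGL1 changed sign over 15 other settings. Leaving out 1 library at a time, KO against WT ranged from -5.40 to -4.42 for FGA, from -8.59 to -7.33 for FGB and from -5.71 to -4.96 for FGG, and T133A against KO from 4.11 to 5.09, from 7.51 to 8.77 and from 5.06 to 5.81 for the same genes, the extremes being those without a KO library. Genes called between T133A and WT numbered 1560, and leaving out 1 library gave 763 (without WT replicate 1) to 2579 (without T133A replicate 2), with 840 without WT replicate 2; the cause was not tested. Requiring an absolute log2 fold change of 1 as well left 431 genes for T133A against WT, 2490 for KO against WT and 2097 for T133A against KO. With a replicate block, 1419, 7165 and 6031 genes were called in those comparisons. Deviations of same-numbered replicates correlated at -0.0515 for T133A and WT, 0.023 for KO and WT and -0.118 for T133A and KO, so the numbers pair nothing here; exchanging the T133A numbers, an alternative chosen after seeing the data, gave 2830 genes for T133A against WT. DESeq2 called 3 of the 26 transcription factors lower in T133A cells and 2 of the 15 liver-type proteins. With a mean of at least 5 CPM required, 5 liver-type proteins fell in KO cells, since fewer genes were tested. Ranking likeness by correlation instead of distance kept 0 of the 5 genes nearest to the summed chains and 1 of the 5 nearest to FGL1. Of all other values, 3130 kept their side of the threshold or moved little, 110 counts or shares moved, and 59 calls of single genes were lost and 42 gained, with no change of sign among called values. With 6 to 89 chain counts in a KO library, counting error limits the KO levels.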

Other observations

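Picked after the values were seen, 2 genes already counted in the lists above are given for their levels. PPBP, a platelet chemokine precursor, had 155 and 118 counts in T133A cells, 0 and 0 in KO cells and 15 and 25 in WT cells. LBP, the acute-phase protein that binds bacterial lipopolysaccharide, was the liver-type plasma protein that rose in T133A cells, at 4.07 CPM in T133A cells, 0.115 in KO cells and 0.141 in WT cells. Its KO and WT levels lay below the 0.160 to 0.184 CPM that a count of 0 allows. LBP thus passed the filter on low counts through T133A cells alone.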
